A study of Arabidopsis thaliana with 9 samples.

Results

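The ascorbate-deficient mutants *vtc3-3* and *vtc2-4* of *Arabidopsis thaliana* were compared with each other directly, gene by gene. The comparison used 6 of the 9 RNA-seq libraries of the series, namely all 3 of *vtc2-4* and all 3 of *vtc3-3*, and all 28642 genes of the count table. No wild-type (Col-0) library entered the fit, and wild-type values are given only as a description. All plants were 2-week-old seedlings on half-strength MS medium with 1% sucrose that spent 48 h in darkness and then 6 h in light (photon flux 100 µmol per square metre and second), and RNA came from shoots. *vtc2-4* carries a T-DNA insertion in an exon of *VTC2*, and *vtc3-3* carries one in an exon of *VTC3*. Each mutant is a single insertion line, so an effect of the named gene and any other difference between the lines cannot be told apart. The authors call the replicates triplicate biological samples. GEO's labels do not say whether the replicates were separate cultures, and the p-values measure the spread between these libraries.

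VTC2 is GDP-L-galactose phosphorylase, the enzyme that commits carbon to ascorbate in the Smirnoff-Wheeler pathway, and VTC5 is its less abundant paralogue. VTC3 is predicted to hold a protein kinase domain joined to a PP2C-type phosphatase domain and acts as a regulator of the ascorbate pool. Ascorbate is the main soluble antioxidant of chloroplasts, and it is also a cofactor of dioxygenases and of the de-epoxidase that makes zeaxanthin in strong light. A direct comparison asks which transcripts distinguish plants that lack the enzyme from plants that lack the regulator.

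The 6 libraries held 4399733 to 7567492 reads on genes, with 1.13 to 1.26% of them on introns. The first principal component separated the mutants and took 39.9% of the variance. Levels are given as counts per 1000000 reads counted on genes (CPM), and log2 fold changes are *vtc3-3* minus *vtc2-4*, so that a negative value means lower in *vtc3-3*. The shoot markers summed to 31033 to 33904 CPM in *vtc2-4* and 31479 to 33054 CPM in *vtc3-3*. Of 8 root markers, 5 had at most 3 reads in every mutant library, and the list summed to 116.5 to 148.8 CPM in *vtc2-4* and 128.8 to 156.6 CPM in *vtc3-3*. The flower and seed markers summed to 4.8 to 7.8 CPM and 4.8 to 11.5 CPM.

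Of 17357 genes tested, 1167 differed between the mutants at an adjusted p under 0.05 (6.72%, edgeR quasi-likelihood test with Benjamini-Hochberg adjustment). In *vtc3-3*, 621 genes were lower (3.58%) and 546 were higher (3.15%) than in *vtc2-4*. Most of the differences were small, with a median of 1.38-fold among the lower and 1.35-fold among the higher genes, and 778 of the 1167 were under 1.5-fold. A difference over 2-fold was found for 180 genes (1.04%), 113 lower and 67 higher. Genes lower in *vtc3-3* had a median exon length of 1284 bases, those higher 1700 bases and all tested genes 1611 bases, and the part of gene length in the result was not tested.

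**Figure D1:**
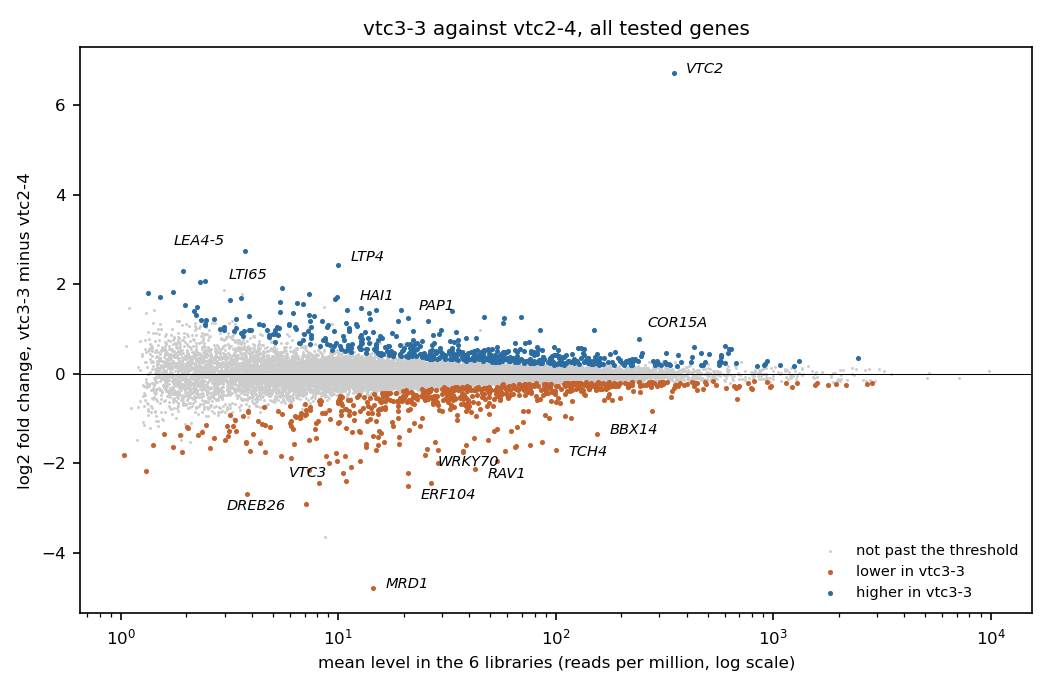
Log2 fold change of *vtc3-3* minus *vtc2-4* against the mean level of each tested gene in CPM on a log scale. Orange points are the genes lower and blue points the genes higher in *vtc3-3* at an adjusted p under 0.05, grey points are the others, and *VTC2* lies far above all other genes. *PI4K GAMMA 1*, with no read in any *vtc3-3* library, is left out because its fold change cannot be drawn.

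The number of calls differed between choices of libraries and values. It was 739 without *vtc3-3* replicate 2, and the number of genes higher in *vtc3-3* was 363 without *vtc2-4* replicate 3. When the wild type joined the fit, the number depended on its replicate 1. That library was unlike its companions, with a chi-square per degree of freedom of 45.74 and 50.62 to them, against 1.83 between wild-type replicates 2 and 3. With all 9 libraries 61 genes were called, all among the 1167 with the same direction. With the 8 libraries that leave out wild-type replicate 1, 1191 genes were called and 96.7% of the 1167 were among them. On the deposited RPKM values, limma called 438 genes. Counts of a gene group are given for both the 9-library and the 8-library fit.

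The mutated genes came out as the labels say. *VTC2* (AT4G26850, chromosome 4, 13499010 to 13501648, in the coordinates of the count table) had 6.95, 7.03 and 5.34 CPM in *vtc2-4* and 706, 689 and 679 CPM in *vtc3-3*. Its log2 fold change was 6.73 ± 0.08 (SE, n=3 per mutant, adjusted p=6.2e-21). *VTC3* (AT2G40860, chromosome 2, 17053568 to 17057182) had 16.7, 17.9 and 17.61 CPM in *vtc2-4* and 4.36, 3.87 and 2.73 CPM in *vtc3-3* (log2 fold change −2.21 ± 0.17, adjusted p=7.6e-08). The paralogue *VTC5* had 64.3, 48.4 and 62.6 CPM in *vtc2-4* and 60.3, 57.0 and 62.0 CPM in *vtc3-3*, and the groups overlapped (log2 fold change 0.02 ± 0.09, adjusted p=0.92).

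Beyond *VTC2* and *VTC3*, none of the other 10 listed genes of ascorbate synthesis passed the threshold. The enzyme GME, which makes GDP-L-galactose, had a log2 fold change of −0.06, and GLDH, which completes the pathway in mitochondria, one of −0.07. The list's regulator beside *VTC3*, *PLP* (AT2G02710), had a negative log2 fold change and did not pass. It was called lower without *vtc2-4* replicate 3 and in a fit with the replicate number as a block. The list then held 2 lower genes instead of 1. Among 17 tested genes of the ascorbate and glutathione cycle only *GR1* (AT3G24170), a glutathione reductase, passed the threshold. It had 202, 217 and 222 CPM in *vtc2-4* and 289, 284 and 271 CPM in *vtc3-3* (log2 fold change 0.39 ± 0.05, adjusted p=9.2e-05), which is 1 of 17 members where 6.72% of all genes were called. None of the 6 tested genes of the ascorbate peroxidase family passed, and *GR1* passed in the 8-library but not in the 9-library fit.

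The neighbourhood of each insertion was examined over 10 annotated genes on either side. Next to *VTC3*, *PI4K GAMMA 1* (AT2G40850, a predicted type II phosphatidylinositol 4-kinase, 275 bases from *VTC3*) had 21, 19 and 31 reads in *vtc2-4* and none in the 3 *vtc3-3* libraries. With 3 reads per library taken as the limit, it was at least 6.15-fold lower in *vtc3-3* (adjusted p=2.3e-05). No other of the 15 tested neighbours of *VTC3* passed. Next to *VTC2*, AT4G26860 lies 1437 bases away on the same strand and was the only one of 11 tested neighbours called. It had 51.0, 47.2 and 49.1 CPM in *vtc2-4* and 76.8, 68.4 and 58.9 CPM in *vtc3-3* (log2 fold change 0.48 ± 0.08, adjusted p=0.0011), and it was called in the 8-library fit (0.48) but not in the 9-library fit (0.46, adjusted p=0.82).

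The gene with the largest fall after *PI4K GAMMA 1* was *MRD1* (AT1G53480, *MTO 1 RESPONDING DOWN 1*), on another chromosome than *VTC3*. It had 29.3, 25.1 and 29.0 CPM in *vtc2-4* and 0.264, 1.74 and 1.36 CPM in *vtc3-3* (log2 fold change −4.78 ± 0.25, adjusted p=7.2e-10). Only 9.37% of its exon reads were assigned to it alone, and on those reads the log2 fold change was −2.98.

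Of the 15 genes with the largest falls in *vtc3-3*, 8 code for transcription factors, most of them known from rapid stress responses. ERF and DREB proteins share the AP2 DNA-binding domain, and many of their genes are switched on within minutes of wounding, touch, chilling or reactive oxygen. Of 16 tested members of the list, 8 were lower (50%) and 2 higher (12.5%) in *vtc3-3*, beside 3.58% and 3.15% of all tested genes. The median log2 fold change was −1.23 against 0.00 over all tested genes. This list, like the others, was chosen with earlier results of these data known, which can raise its share of calls. *DREB26* had 12.0, 16.0 and 9.82 CPM in *vtc2-4* and 2.38, 0.773 and 1.59 CPM in *vtc3-3* (log2 fold change −2.91 ± 0.29, adjusted p=2.1e-06). *ERF104*, a target of the MPK6 kinase in ethylene and immune signalling, had 35.3, 41.7 and 30.3 CPM against 7.27, 5.61 and 5.45 CPM (−2.52 ± 0.15, adjusted p=4.9e-09). Every *vtc2-4* library lay above every *vtc3-3* library for both genes, which was a condition for a place among the 15.

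*ERF105* had 11.8, 16.4 and 12.7 CPM in *vtc2-4* and 1.59, 2.51 and 4.09 CPM in *vtc3-3* (log2 fold change −2.44 ± 0.25). *ORA47*, a regulator of jasmonate synthesis, had 22.5, 16.1 and 16.3 CPM against 4.096, 3.29 and 2.73 CPM (−2.39 ± 0.20). *ERF6* had 14.2, 13.9 and 7.79 CPM against 2.91, 1.93 and 3.18 CPM (−2.16 ± 0.27). *ERF105*, *ORA47* and *ERF6* are also among the 15, chosen for large falls and groups without overlap. The other members that fell, *ERF-1*, *ERF5* and *ERF2*, had log2 fold changes of −1.64, −1.49 and −1.29. In the opposite direction, *DREB1A*, a cold-response regulator also known as CBF3, had 6.95, 5.66 and 4.62 CPM in *vtc2-4* and 9.78, 9.09 and 8.41 CPM in *vtc3-3* (0.67 ± 0.19, adjusted p=0.037), a call that held only with *vtc2-4* replicate 1 left out among the single-library omissions. *CRF2* had a log2 fold change of 0.54 ± 0.09. The list was not uniform, since *ERF4* (0.07), *ERF8* (0.36) and *ERF11* (0.14) did not pass the threshold. In the 9-library fit 7 of the 8 falls and neither rise passed, and the 8-library fit called 8 lower and 2 higher.

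The MYB44 subgroup of R2R3-MYB factors is a small family of stress-responsive regulators with 4 members, and all 4 were lower in *vtc3-3*. *MYB77*, which takes part in auxin responses, had 34.9, 35.9 and 32.3 CPM in *vtc2-4* and 8.33, 6.57 and 7.05 CPM in *vtc3-3* (log2 fold change −2.22 ± 0.12, adjusted p=1.2e-09). *MYB73* had 48.0, 40.1 and 35.4 CPM against 15.6, 13.5 and 13.9 CPM (−1.52 ± 0.12). *MYB70* and *MYBR1* (*MYB44*) fell less, by 0.91 and 0.52 on the log2 scale. Of the 4, 2 passed in the 9-library fit and all 4 in the 8-library fit. *RAV1*, an AP2/B3 factor outside these lists, had 79.2, 77.1 and 53.0 CPM in *vtc2-4* and 16.8, 17.79 and 12.7 CPM in *vtc3-3* (−2.14 ± 0.15, adjusted p=2.1e-08).

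**Figure D2:**
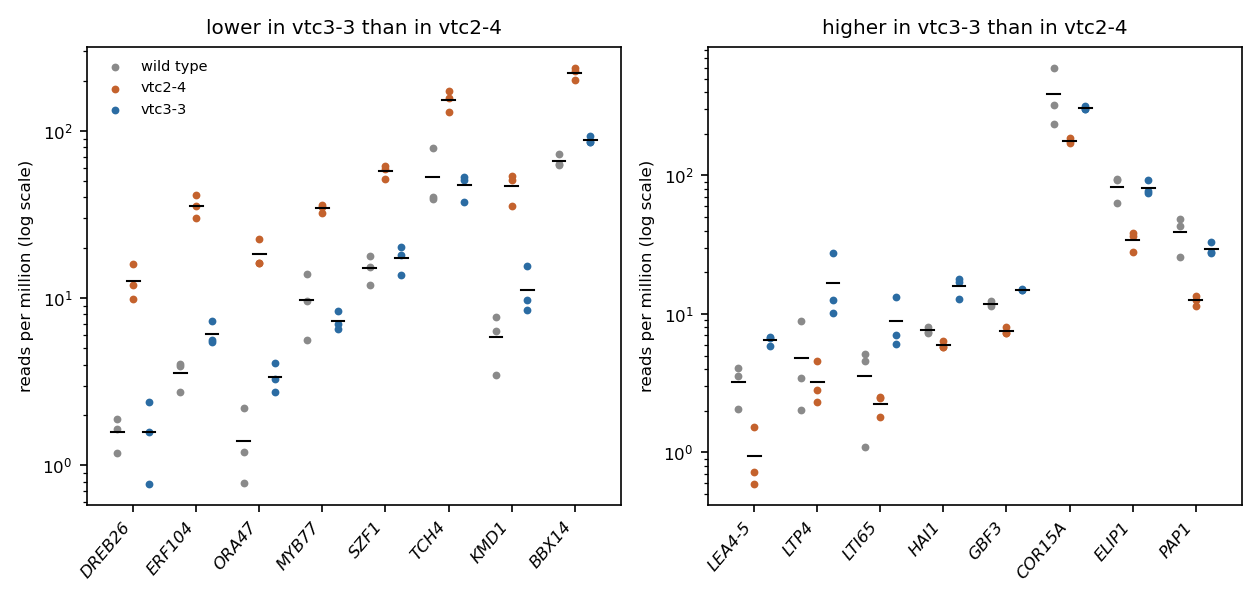
Level of 16 genes in each library, in CPM on a log scale, with the wild type in grey, *vtc2-4* in orange and *vtc3-3* in blue; points are single libraries and bars the mean of 3. In the plot on the left, all 3 *vtc2-4* libraries lie above all 3 *vtc3-3* libraries, and in the plot on the right they lie under them, as for *ERF104* (30.3 CPM or more against 7.27 CPM or less).

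Zinc finger proteins and deadenylases, which repress transcription or shorten poly(A) tails, gave 6 lower (50%) and 0 higher of 12 tested members (median log2 fold change −0.52). Among all tested genes 3.58% were lower and 3.15% higher. *STZ* (*ZAT10*), a C2H2 repressor, had 14.9, 17.9 and 10.4 CPM in *vtc2-4* and 3.700, 2.90 and 4.32 CPM in *vtc3-3* (−2.004 ± 0.23, adjusted p=1.1e-05). *SZF1*, a tandem CCCH protein, had 59.3, 62.1 and 51.2 CPM against 18.1, 13.7 and 20.2 CPM (−1.74 ± 0.12). *CAF1a*, a subunit of the CCR4-NOT deadenylase, had 23.501, 27.3 and 17.9 CPM against 8.19, 6.57 and 5.91 CPM (−1.71 ± 0.17). Of the 5 CCCH genes 4 fell, whereas of the 5 tested C2H2 genes *STZ* alone did, and *ZAT6* (0.27) and *RHL41* (*ZAT12*, −0.49) did not pass. In the 9-library fit 4 of the 6 passed, and the 8-library fit called 6.

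Touch-responsive genes code for calcium-binding proteins and for enzymes that loosen or remodel the cell wall. Of 20 tested members 9 were lower (45%) and 1, *XTH24*, was higher (5%) in *vtc3-3*, beside 3.58% and 3.15% of all tested genes. The median log2 fold change of the list was −0.59. The calmodulin-like gene AT4G27280 had 51.3, 44.97 and 39.0 CPM in *vtc2-4* and 8.85, 5.99 and 10.001 CPM in *vtc3-3* (−2.45 ± 0.14, adjusted p=2.6e-09). *TCH4*, a xyloglucan endotransglucosylase, had 173, 158 and 130 CPM against 51.1, 37.7 and 53.0 CPM (−1.71 ± 0.11, adjusted p=5.2e-09). *PHI-1* and *EXO*, of the EXORDIUM family, fell by 1.94 and 1.28 on the log2 scale. The groups overlapped for *TCH3* (45.7, 54.5 and 40.6 CPM against 28.0, 22.2 and 47.3 CPM, adjusted p=0.049), and its call was lost with any one of *vtc2-4* replicates 1 and 2 and *vtc3-3* replicates 1 and 2 left out. In the 9-library fit 3 of the 9 falls passed and the rise did not, and the 8-library fit called 8 lower and 1 higher. The rise of *XTH24* (0.32, adjusted p=0.047) held in 1 of 6 omissions of a single library, that of *vtc2-4* replicate 2.

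WRKY factors, a family tied to defence, mostly did not follow. Of 17 tested members 2 were lower (11.8%, beside 3.58% of all tested genes), *WRKY70* and *WRKY40*. *WRKY70* had 44.3, 39.6 and 32.0 CPM in *vtc2-4* and 8.99, 10.2 and 18.9 CPM in *vtc3-3* (−1.69 ± 0.18, adjusted p=5.3e-06). The call of *WRKY40* was lost when *vtc2-4* replicate 2 or 3 or *vtc3-3* replicate 1 or 2 was left out, and the count was 0 in the 9-library and 2 in the 8-library fit. *WRKY33* (−0.14) and *WRKY53* (0.24) did not pass the threshold.

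Jasmonate is made from linolenic acid by LOX, AOS and AOC enzymes, and JAZ proteins repress its target genes. Of 19 tested members 6 were lower (31.6%, beside 3.58% of all tested genes) and 0 higher in *vtc3-3*, all by less than 1.5-fold. The list had a median log2 fold change of −0.32. *LOX2*, the plastid lipoxygenase, had 558, 506 and 536 CPM in *vtc2-4* and 392, 450 and 425 CPM in *vtc3-3* (−0.35 ± 0.06, adjusted p=0.00076). *JAZ6* fell by 0.43 and *AOC2* by 0.46 on the log2 scale. This count was unstable, with 3 calls without *vtc2-4* replicate 1 or *vtc3-3* replicate 1, 12 without *vtc3-3* replicate 3, 0 in the 9-library fit and 7 in the 8-library fit.

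Genes induced by darkness and sugar starvation formed another group with mostly lower levels in *vtc3-3*. Of 30 tested members 14 were lower (46.7%) and 1 was higher (3.33%), beside 3.58% and 3.15% of all tested genes. The median log2 fold change was −0.51. All seedlings had sucrose in the medium and the same dark period, and the cause of the difference was not tested. *KMD1*, an F-box gene of the Kelch family that targets type-B cytokinin response regulators and phenylalanine ammonia-lyase, had 50.5, 53.5 and 35.5 CPM in *vtc2-4* and 15.5, 8.51 and 9.77 CPM in *vtc3-3* (−1.995 ± 0.17, adjusted p=4.7e-07). AT2G20670, a DUF506 gene, had 97.7, 92.8 and 66.8 CPM against 28.7, 16.0 and 19.5 CPM (−1.96 ± 0.16, adjusted p=1.2e-07). *TPS8*, a class II trehalose phosphate synthase-like gene, had 51.9, 43.3 and 23.1 CPM against 13.7, 9.09 and 10.001 CPM (−1.81 ± 0.23). Of the 7 tested genes of its family 2 were lower, 4 had a positive log2 fold change and the median was 0.04. For *KMD1*, AT2G20670 and *TPS8* the *vtc2-4* libraries lay above the *vtc3-3* libraries. Nearly all called genes had groups without overlap, as did 4093 of all 17357 tested genes. Within its group *vtc2-4* replicate 3 was the lowest in all 3 named genes.

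The remaining starvation genes were split. AT5G19120 fell by 1.70 and *DIN10* by 1.17 on the log2 scale, and *KMD4* had 151, 155 and 131 CPM in *vtc2-4* and 89.9, 71.3 and 61.8 CPM in *vtc3-3* (−0.96 ± 0.09). *SEN1* (AT4G35770) went the other way, with 19.7, 24.3 and 35.4 CPM in *vtc2-4* and 42.7, 61.7 and 30.5 CPM in *vtc3-3*, which overlap (0.76 ± 0.19, adjusted p=0.019). That call was lost without *vtc2-4* replicate 1, *vtc2-4* replicate 2 or *vtc3-3* replicate 2. *ASN1*, the starvation-induced asparagine synthetase, did not pass (−0.10, adjusted p=0.89). Of the bZIP genes, *bZIP1*, *BZIP53* and *BZO2H3* (*bZIP63*) fell by 1.55, 0.90 and 0.88 on the log2 scale, but no exon read of *bZIP1* or *BZIP53* was assigned to that gene alone. In the 9-library fit 5 of the 14 falls passed, and the 8-library fit called 14 lower and 1 higher.

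Genes of light signalling and photoprotection went in both directions. *BBX14*, a B-box gene for a zinc finger protein of light signalling, had 229, 238 and 201 CPM in *vtc2-4* and 92.8, 86.2 and 85.9 CPM in *vtc3-3* (−1.34 ± 0.07, adjusted p=7.2e-10). *BBX17* had 16.0, 14.3 and 10.7 CPM against 3.83, 3.87 and 3.86 CPM (−1.83 ± 0.20), and *BBX15* fell by 0.40. In contrast, *HY5*, the bZIP factor that promotes photomorphogenesis, had 18.3, 17.1 and 19.9 CPM in *vtc2-4* and 26.4, 24.2 and 26.6 CPM in *vtc3-3* (0.47 ± 0.10, adjusted p=0.0076). The early light-induced proteins ELIP1 and ELIP2, which bind chlorophyll in strong light, rose as transcripts. *ELIP1* had 38.4, 27.9 and 36.7 CPM against 93.0, 76.7 and 75.2 CPM (1.26 ± 0.10, adjusted p=1.6e-07), and *ELIP2* had a log2 fold change of 0.86 ± 0.10. Of 19 tested members 4 were lower (21.1%) and 4 higher (21.1%), beside 3.58% and 3.15% of all tested genes. In each direction 2 passed in the 9-library fit and 4 in the 8-library fit.

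Genes of the chlorophyll-binding antenna were lower in *vtc3-3* by small amounts. All 18 had a negative log2 fold change (median −0.20). Of them 10 passed the threshold (55.6%, beside 3.58% lower among all tested genes), none higher. *LHB1B1*, a gene of the major antenna protein, had 339, 402 and 325 CPM in *vtc2-4* and 173, 203 and 227 CPM in *vtc3-3* (−0.84 ± 0.09, adjusted p=4.3e-06). The other 9 fell by 0.20 to 0.34 on the log2 scale. An example is *LHCB4.2*, with 714, 780 and 747 CPM against 587, 581 and 630 CPM (−0.33 ± 0.05). The 8-library fit called 10 and the 9-library fit none, and limma on RPKM called 2. Of the shoot markers *PSBO1*, of the oxygen-evolving complex, fell by 0.22 (adjusted p=0.0092), and the genes of Rubisco small subunits had log2 fold changes of −0.02 to 0.06.

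Among the lists with mostly higher levels in *vtc3-3*, that of abscisic acid (ABA) had the most calls. ABA is bound by PYR/PYL receptors, which then inhibit clade A PP2C phosphatases and so release SnRK2 kinases that activate ABF factors. The PP2C genes are themselves induced by ABA and the receptor genes tend to be repressed by it. Of 36 tested members 19 were higher and 3 lower in *vtc3-3* (median log2 fold change 0.36), where 3.15% of all genes were higher. Because the list was chosen with earlier results of these data known, the excess over that share is a description and no independent evidence.

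Among the receptors, 2 of 8 tested were lower and 0 higher. *PYL4* had 28.8, 30.6 and 30.3 CPM in *vtc2-4* and 18.4, 22.2 and 20.2 CPM in *vtc3-3* (−0.58 ± 0.10, adjusted p=0.0011), and *PYL5* fell by 1.49, a call lost without *vtc3-3* replicate 1. Among the phosphatases, 6 of 7 tested were higher, all 6 also with any library left out. *HAI1* had 5.76, 5.79 and 6.35 CPM in *vtc2-4* and 17.0, 18.0 and 12.7 CPM in *vtc3-3* (1.42 ± 0.16, adjusted p=1.1e-05). *HAI2* rose by 1.36, *ABI2* by 0.68, *ABI1* by 0.49, *HAB1* by 0.46 and *PP2CA* by 0.33 on the log2 scale, and *HAB2* (0.21) did not pass. For each of these 6 phosphatases every *vtc3-3* library lay above every *vtc2-4* library. Nearly all called genes had groups without overlap, as did 4093 of all 17357 tested genes. Of the 6 phosphatases, 1 passed in the 9-library and 6 in the 8-library fit.

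Of the bZIP factors, *GBF3* had 7.24, 7.31 and 8.08 CPM in *vtc2-4* and 14.9, 15.1 and 14.8 CPM in *vtc3-3* (0.97 ± 0.14, adjusted p=0.00016), and *ABF2* and *ABF3* rose by 0.42 and 0.38. Without *vtc2-4* replicate 2 only *GBF3* of the 3 was called, and the call of *ABF3* was also lost without *vtc2-4* replicate 1, *vtc3-3* replicate 1 or *vtc3-3* replicate 2. Of 4 tested genes of ABA synthesis and breakdown 1 was higher, 1 was lower and 2 did not pass. *NCED3*, for the rate-limiting dioxygenase of ABA synthesis, had 3.695, 3.31 and 3.46 CPM in *vtc2-4* and 6.21, 7.93 and 7.50 CPM in *vtc3-3* (1.01 ± 0.21, adjusted p=0.0048). *CYP707A3*, for an ABA 8′-hydroxylase that degrades the hormone, had 8.28, 10.6 and 6.78 CPM against 2.51, 3.09 and 1.36 CPM (−1.85 ± 0.27, adjusted p=0.00015).

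Response genes of ABA rose in 9 of 11 cases. *LTI65* (*RD29B*) had 2.51, 1.79 and 2.45 CPM in *vtc2-4* and 6.08, 13.3 and 7.05 CPM in *vtc3-3* (1.93 ± 0.30, adjusted p=0.00042). *LTI78* (*RD29A*), at a far higher level, had 490, 524 and 503 CPM against 768, 759 and 704 CPM (0.55 ± 0.05, adjusted p=1.4e-06). The lipid transfer protein gene *LTP4* had 2.81, 4.55 and 2.31 CPM against 27.5, 12.6 and 10.2 CPM (2.43 ± 0.32). *PUB19*, for a U-box ubiquitin ligase, had 1.63, 1.66 and 1.73 CPM against 5.95, 5.22 and 5.23 CPM (1.70 ± 0.26). *RD26*, for a NAC factor often used as an ABA marker, went the other way without passing (−0.53, adjusted p=0.075). Outside the list, the late embryogenesis abundant gene *LEA4-5* rose from 0.591, 1.52 and 0.722 CPM to 6.74, 6.77 and 5.91 CPM (2.74 ± 0.31, adjusted p=1.1e-05), and *AFP1*, for an ABI5-binding protein, by 1.72 ± 0.19. In the 9-library fit 3 of the 19 rises and 1 of the 3 falls passed, and the 8-library fit called 21 higher and 3 lower.

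**Figure D3:**
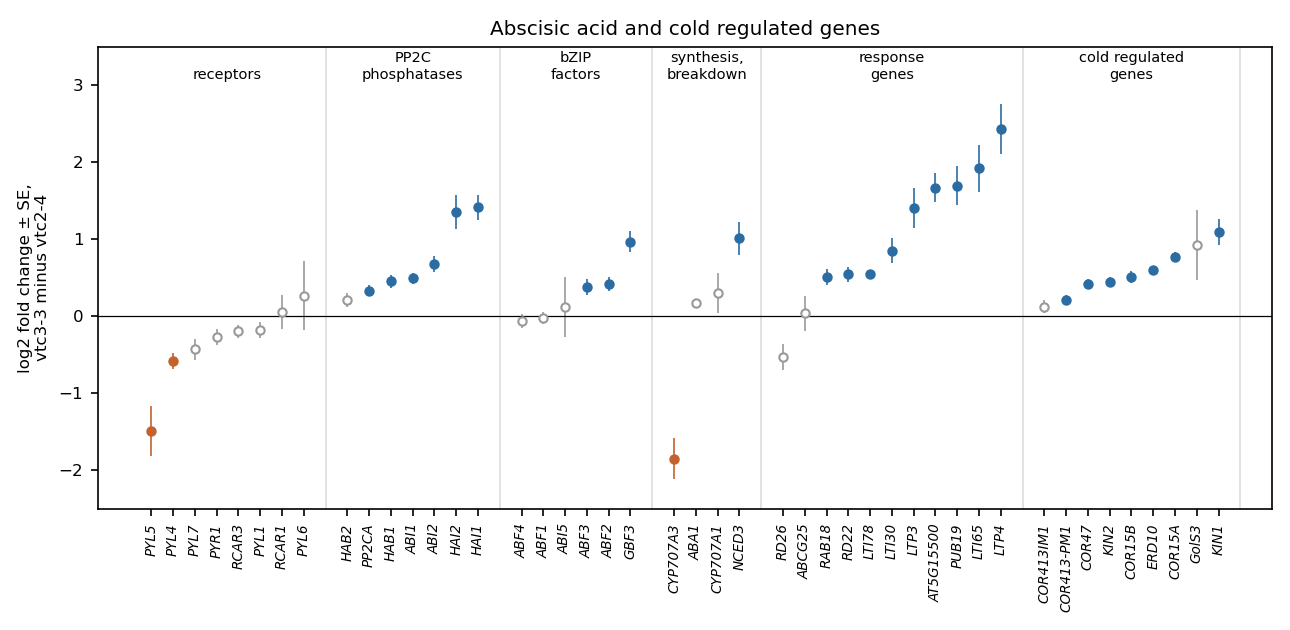
Log2 fold change ± SE of *vtc3-3* minus *vtc2-4* for the 36 tested genes of the ABA list, by role, and the 9 cold-regulated genes. Filled points passed an adjusted p of 0.05 and open grey points did not; the 2 receptors that passed lie below 0, and all 7 phosphatases and all 9 cold-regulated genes lie above 0.

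Cold-regulated genes, many of them also ABA-responsive and coding for dehydrins and other protective proteins, were higher in 7 of 9 cases and lower in none (median log2 fold change 0.51). The share higher was 77.8%, beside 3.15% of all tested genes. *COR15A*, for a stromal cryoprotective protein, had 178, 185 and 171 CPM in *vtc2-4* and 299, 319 and 303 CPM in *vtc3-3* (0.77 ± 0.05, adjusted p=3.0e-08). The dehydrin gene *ERD10* had 334, 361 and 331 CPM against 551, 515 and 503 CPM (0.60 ± 0.05, adjusted p=5.9e-07), and *KIN1* rose by 1.09 from 5.67 to 12.4 CPM in the mean. The 8-library fit called 7, the 9-library fit none and limma on RPKM 6.

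Promoter sequence was set beside these groups. The promoter was taken as the 250 bases before the gene start in the table, read from TAIR10.1, and 17281 tested genes had one. The ABRE core, ACGTG on either strand, is the site bound by ABF factors and is contained in the G-box, CACGTG. It was found in 43.8% of the promoters of genes higher in *vtc3-3*, in 29.6% of those lower and in 26.3% of all tested genes. The G-box gave 17.7%, 12.1% and 9.41%. In the ABA list 26 of 36 promoters held an ABRE core, and in the cold list 6 of 9. Such shares were not particular to lists with higher genes. The jasmonate list, with only lower calls, had 14 of 19, the clock list 21 of 26 and the iron list, without a call, 7 of 8. Low shares were also found in both directions, with 1 of 9 in the phosphate starvation list and 4 of 20 in the touch list. These shares are descriptions without a test, and a match does not show binding.

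The promoters of *LTI65* (chr5:21236806-21237055, plus strand), *PUB19* (chr1:22198153-22198402, plus strand) and AT5G15500 (chr5:5033501-5033750, minus strand) are shown because they had the largest rises among the listed genes over 2-fold higher that hold the ABRE core, which is in capitals.
LTI65: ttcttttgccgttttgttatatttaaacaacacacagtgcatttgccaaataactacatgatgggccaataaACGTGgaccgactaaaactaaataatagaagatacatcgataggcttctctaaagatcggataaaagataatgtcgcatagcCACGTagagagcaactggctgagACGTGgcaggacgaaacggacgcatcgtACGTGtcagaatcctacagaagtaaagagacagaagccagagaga
PUB19: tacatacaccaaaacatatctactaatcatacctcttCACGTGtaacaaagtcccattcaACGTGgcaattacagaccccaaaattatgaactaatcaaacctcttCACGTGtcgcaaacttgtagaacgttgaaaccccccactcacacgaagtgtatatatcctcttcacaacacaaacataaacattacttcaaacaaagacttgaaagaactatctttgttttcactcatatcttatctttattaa
AT5G15500: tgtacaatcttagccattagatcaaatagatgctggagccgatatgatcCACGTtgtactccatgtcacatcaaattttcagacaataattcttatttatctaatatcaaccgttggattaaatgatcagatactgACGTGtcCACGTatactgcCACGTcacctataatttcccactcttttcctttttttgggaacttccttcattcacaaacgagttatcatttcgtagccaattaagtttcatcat
They hold 4, 5 and 4 matches. In *PUB19*, 2 pairs of matches form a G-box, in which the core is read on both strands.

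For genes lower in *vtc3-3* the ABRE core was near the background and other motifs stood out. The evening element, AAATATCT on either strand, is bound by clock factors of the CCA1 family. It was found in 12.0% of the promoters of genes lower in *vtc3-3*, 7.02% of those higher and 4.9% of all tested genes. The rapid stress element, CGCGTT, known from genes induced within minutes of wounding, was found in 5.99%, 3.14% and 3.7%. Among genes over 2-fold lower, its share was 10.6%, and among those over 2-fold higher 10.4%. The evening element was in 14.2% and 5.97% of these. The GCC box, GCCGCC, bound by ERF proteins, gave 2.59%, 0.924% and 2.37%, with 6.19% of the promoters of genes over 2-fold lower (7 of 113) and 1.49% of those over 2-fold higher (1 of 67). The W-box, TTGAC, gave 44.0%, 44.2% and 44.2%, with 50.4% and 44.8% over 2-fold. The heat shock element, GAANNTTC, gave 10.4%, 11.5% and 9.59%, with 15.9% and 13.4% over 2-fold.

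The promoters of *KMD1* (chr1:30241357-30241606, plus strand) and *MYB73* (chr4:17540240-17540489, plus strand) are the listed genes over 2-fold lower that hold the evening element, shown in capitals.
KMD1: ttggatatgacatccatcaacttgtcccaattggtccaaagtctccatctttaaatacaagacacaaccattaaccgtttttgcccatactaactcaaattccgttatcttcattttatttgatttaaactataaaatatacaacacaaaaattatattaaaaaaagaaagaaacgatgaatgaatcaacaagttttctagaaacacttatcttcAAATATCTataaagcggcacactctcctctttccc
MYB73: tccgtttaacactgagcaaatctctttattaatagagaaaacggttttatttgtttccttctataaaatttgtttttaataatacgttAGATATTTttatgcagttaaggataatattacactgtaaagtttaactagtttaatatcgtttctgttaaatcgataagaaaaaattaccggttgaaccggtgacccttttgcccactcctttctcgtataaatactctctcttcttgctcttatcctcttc
The promoters of *ORA47* (chr1:28143882-28144131, plus strand), *PHI-1* (chr1:12851747-12851996, plus strand) and *CAF1a* (chr3:15953085-15953334, minus strand) are those with the largest falls among the listed genes that hold the rapid stress element, shown in capitals.
ORA47: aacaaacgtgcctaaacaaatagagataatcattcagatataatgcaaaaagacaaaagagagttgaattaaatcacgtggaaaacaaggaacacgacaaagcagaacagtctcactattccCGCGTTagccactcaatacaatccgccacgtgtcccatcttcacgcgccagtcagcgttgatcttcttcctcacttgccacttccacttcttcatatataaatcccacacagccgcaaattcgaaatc
PHI-1: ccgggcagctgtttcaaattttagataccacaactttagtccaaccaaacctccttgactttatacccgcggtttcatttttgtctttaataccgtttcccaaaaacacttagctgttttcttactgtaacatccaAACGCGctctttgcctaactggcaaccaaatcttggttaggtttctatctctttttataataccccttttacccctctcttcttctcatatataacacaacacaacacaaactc
CAF1a: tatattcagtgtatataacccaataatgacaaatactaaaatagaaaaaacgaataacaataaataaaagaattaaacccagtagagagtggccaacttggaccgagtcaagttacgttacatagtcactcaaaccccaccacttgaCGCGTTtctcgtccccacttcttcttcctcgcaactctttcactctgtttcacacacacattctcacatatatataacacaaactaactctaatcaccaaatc
The element lies 128, 114 and 103 bases before the gene start in these 3 genes, counted to the first base of the match.

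**Figure D4:**
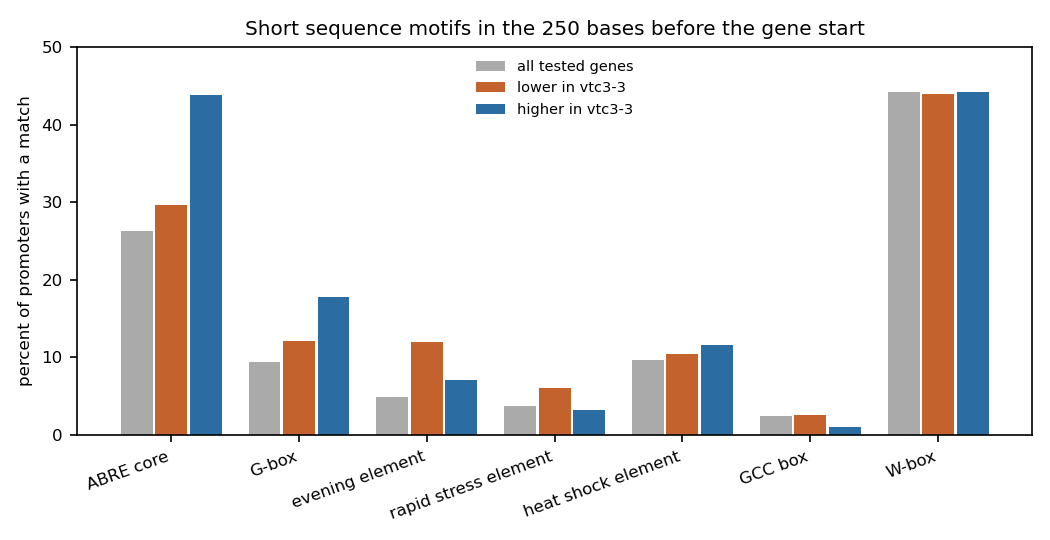
Share of promoters (250 bases before the gene start) with at least 1 match to each motif on either strand, in percent, for all tested genes (grey), genes lower in *vtc3-3* (orange) and genes higher in *vtc3-3* (blue). The ABRE core is most frequent in the higher genes (43.8% against 26.3% of all) and the evening element in the lower genes (12.0% against 4.9%), while the W-box has a share of 44.0 to 44.2% in each.

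Clock genes went in both directions. Of 26 tested, 4 were higher (15.4%) and 3 lower (11.5%) in *vtc3-3*, beside 3.15% and 3.58% of all tested genes. *CCA1*, the morning-phased repressor, had 49.5, 58.5 and 58.6 CPM in *vtc2-4* and 89.7, 77.9 and 79.1 CPM in *vtc3-3* (0.56 ± 0.08, adjusted p=0.00011). *LNK1*, *RVE8* and *PRR9* rose by 0.24, 0.38 and 0.39, while *PRR5*, *ELF3* and AT5G08330 (*CHE*) fell by 0.47, 0.23 and 0.41. *LHY*, the partner of CCA1, did not pass (0.51, adjusted p=0.14), nor did *TOC1* (−0.20) or *GI* (−0.04). The calls of *RVE8* and *ELF3* were lost with any single library left out. The 4 rises became 2 without *vtc2-4* replicate 1, *vtc3-3* replicate 1 or *vtc3-3* replicate 2, and none of the 7 calls passed in the 9-library fit, whereas the 8-library fit called 4 higher and 3 lower.

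Heat shock genes, which code for chaperones and their activating factors, were higher in 8 of 21 cases and lower in none (median log2 fold change 0.34). The share higher was 38.1%, beside 3.15% of all tested genes. *HSP90.1* had 35.0, 34.2 and 35.1 CPM in *vtc2-4* and 51.4, 58.0 and 129 CPM in *vtc3-3* (1.13 ± 0.23, adjusted p=0.0039). *HSP70* (AT3G12580) had 88.5, 108 and 104 CPM against 150, 158 and 295 CPM (0.97 ± 0.17), and *Hsp70-2* 51.6, 55.7 and 60.5 CPM against 91.0, 93.6 and 155 CPM (0.98 ± 0.14). In all 3 genes *vtc3-3* replicate 3 was far above its 2 companions, and without any single library 7 or 8 of the list still passed. *HSFA2*, for the factor that sustains the response, rose by 0.85, and *HSP17.8* by 1.57. *HSP101* (0.02), a disaggregase that is a strong heat marker, did not pass. The 8-library fit called 7, and none of the 8 passed in the 9-library fit or by limma on RPKM.

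Phosphate starvation genes were higher in 6 of 9 cases (66.7%, beside 3.15% of all tested genes) and lower in none (median log2 fold change 0.88). *PHT1;4*, a phosphate transporter, had 6.65, 3.03 and 2.74 CPM in *vtc2-4* and 8.72, 10.2 and 12.7 CPM in *vtc3-3* (1.32 ± 0.26, adjusted p=0.0034). The phosphatase gene *PAP17* had 22.6, 16.8 and 20.8 CPM against 32.2, 32.7 and 49.1 CPM (0.88 ± 0.14), and *MGDC* (*MGD3*), which makes galactolipid in place of phospholipid, rose by 1.18. *PS2* overlapped, since *vtc2-4* replicate 1 (13.6 CPM) exceeded *vtc3-3* replicate 1 (13.5 CPM). The calls were 2 without *vtc2-4* replicate 2, 3 without *vtc2-4* replicate 3, 3 without *vtc3-3* replicate 3, 0 in the 9-library fit and 6 in the 8-library fit.

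Nitrogen genes went in both directions, and the sulfur genes that passed were all lower. Of 11 tested nitrogen genes 3 were lower and 2 higher, beside 3.58% and 3.15% of all tested genes. Among the 8 tested genes of nitrate use 2 were higher and 0 lower, 3 had a negative log2 fold change, and the median was 0.13. *NIA1*, a nitrate reductase, and *WR3* (*NRT3.1*), a partner of nitrate transporters, rose by 0.57 and 1.58 on the log2 scale. The nitrogen-responsive repressors *LBD37*, *LBD38* and *LBD39* all fell, by 0.39, 0.54 and 0.31. *LBD37* had 113, 115 and 107 CPM in *vtc2-4* and 84.7, 84.5 and 88.0 CPM in *vtc3-3* (adjusted p=0.00035), and it was the only one of the 3 called without *vtc3-3* replicate 1. The call of *LBD39* was also lost without *vtc2-4* replicate 1 or 2 or *vtc3-3* replicate 2. Of 12 tested sulfur genes 4 were lower and 0 higher. *SDI2*, a sulfur-deficiency gene, had 62.7, 57.5 and 50.1 CPM against 33.2, 27.8 and 26.8 CPM (−0.95 ± 0.10, adjusted p=4.8e-06), and *APR1*, for the reductase that controls flux into cysteine, fell by 0.48. None of these nitrogen and sulfur calls passed in the 9-library fit, whereas the 8-library fit called 3 nitrogen genes lower and 2 higher, and 4 sulfur genes lower.

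Flavonoid synthesis was higher in its early steps. Of 19 tested genes 6 were higher (31.6%) and 1 lower (5.26%), beside 3.15% and 3.58% of all tested genes. *TT4*, for chalcone synthase, had 113, 109 and 113 CPM in *vtc2-4* and 143, 165 and 155 CPM in *vtc3-3* (0.45 ± 0.06, adjusted p=9.5e-05), and *F3H* rose by 0.50, although only 24.7% of its exon reads were assigned to it alone. *PAP1* (AT1G56650), the MYB activator of anthocyanin synthesis, had 11.4, 12.7 and 13.4 CPM against 33.0, 27.8 and 27.5 CPM (1.24 ± 0.12, adjusted p=1.1e-06). *MYBL2*, a repressor of the same pathway, had 99.3, 107 and 82.4 CPM against 52.6, 41.8 and 42.3 CPM (−1.07 ± 0.10, adjusted p=9.4e-07). The activator rose and the repressor fell, and none of the 6 late enzymes of anthocyanin synthesis passed, with *DFR* at 0.29 and *LDOX* at 0.20. Only *MYBL2* of these 7 passed in the 9-library fit, and the 8-library fit called 7 higher and 1 lower.

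Genes of the copper-zinc superoxide dismutases were lower and 1 gene of the iron enzymes was higher in *vtc3-3*. *CSD1*, for the cytosolic copper-zinc enzyme, had 126, 115 and 123 CPM in *vtc2-4* and 83.5, 68.6 and 84.6 CPM in *vtc3-3* (−0.63 ± 0.07, adjusted p=9.8e-06). *CSD2* fell by 0.29, and *CCS*, for the chaperone that loads their copper, by 0.44. *FSD1*, for an iron enzyme, had 423, 463 and 433 CPM against 520, 514 and 554 CPM (0.26 ± 0.05, adjusted p=0.0055). *CAT3* fell by 0.20, which makes 4 lower (36.4%) and 1 higher (9.09%) of 11 tested members, beside 3.58% and 3.15% of all tested genes. *CAT2* (0.13), *CSD3* (−0.09) and *FSD2* (−0.16) did not pass. The call of *CAT3* was lost without *vtc2-4* replicate 2 or 3 or *vtc3-3* replicate 1 or 2. None of the 5 passed in the 9-library fit, and the 8-library fit called 4 lower and 1 higher.

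The other lists, also chosen with earlier results of these data known, are given by their counts, beside 3.58% lower and 3.15% higher among all tested genes. Of the auxin-induced Aux/IAA repressor genes 4 of 10 were lower (40%) and 0 higher, with *IAA1* lower by 0.80 on the log2 scale. Of the salicylic acid and pathogen list 5 of 19 were higher (26.3%) and 0 lower, all among response genes, with 8 without *vtc2-4* replicate 1 and 3 without *vtc3-3* replicate 1. The defence genes *FRK1*, *OSM34* and *DOX1* had at most 1.92 CPM in any *vtc2-4* library and 1.82 to 5.03 CPM in *vtc3-3*, and the calls of *OSM34* and *DOX1* were lost without *vtc2-4* replicate 2 or 3 or *vtc3-3* replicate 1 or 2, that of *DOX1* also without *vtc3-3* replicate 3. *PRX71* rose from 5.76, 4.97 and 6.64 CPM to 12.3, 12.6 and 11.1 CPM (1.05 ± 0.17). Of 8 type-A response regulators *ARR7* alone rose, by 0.50. Of 14 glucosinolate genes 3 were lower (21.4%) and 1, *FMO GS-OX4*, was higher by 1.29, and the 3 falls became 0 without *vtc3-3* replicate 2 and 1 without *vtc2-4* replicate 3. Of 18 detoxification genes 2 were higher and 1, *UGT73B1*, was lower by 0.79, and the rises became 4 without *vtc2-4* replicate 1, 0 without *vtc3-3* replicate 1 and 1 without *vtc2-4* replicate 3. No tested gene of the iron list (8) or the amine oxidase list (7) passed the threshold. None of the calls in these other lists passed in the 9-library fit. The 8-library fit called 4 Aux/IAA genes lower, 6 pathogen genes higher, 1 response regulator higher, 3 glucosinolate genes lower and 1 higher, and 1 detoxification gene lower and 3 higher.

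Genes outside the lists completed the extremes of the comparison. *GAD4*, for a glutamate decarboxylase, which makes the amino acid GABA, had 2.51, 4.0002 and 3.18 CPM in *vtc2-4* and 11.1, 8.12 and 15.2 CPM in *vtc3-3* (1.79 ± 0.24, adjusted p=7.8e-05), and it was called in both the 9-library and the 8-library fit. AT3G50800 had 6.95, 5.93 and 6.64 CPM against 0.529, 1.35 and 1.36 CPM (−2.69 ± 0.31, adjusted p=1.3e-05). At high levels the differences were smaller. *RPT2*, for a protein that acts with phototropins in phototropism, had 209.6, 239 and 207 CPM in *vtc2-4* and 151, 135 and 151 CPM in *vtc3-3* (−0.60 ± 0.07, adjusted p=7.5e-06). AT3G09440, an Hsp70 family gene, had 412, 483 and 519.8 CPM against 726, 666 and 796 CPM (0.62 ± 0.07, adjusted p=1.9e-05). Groups did not overlap for these 4 genes, which was a condition for naming *GAD4* and AT3G50800. The same held for 4093 of all 17357 tested genes. The genes AT3G50800, *RPT2* and AT3G09440 were called in the 8-library but not in the 9-library fit.

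**Figure D5:**
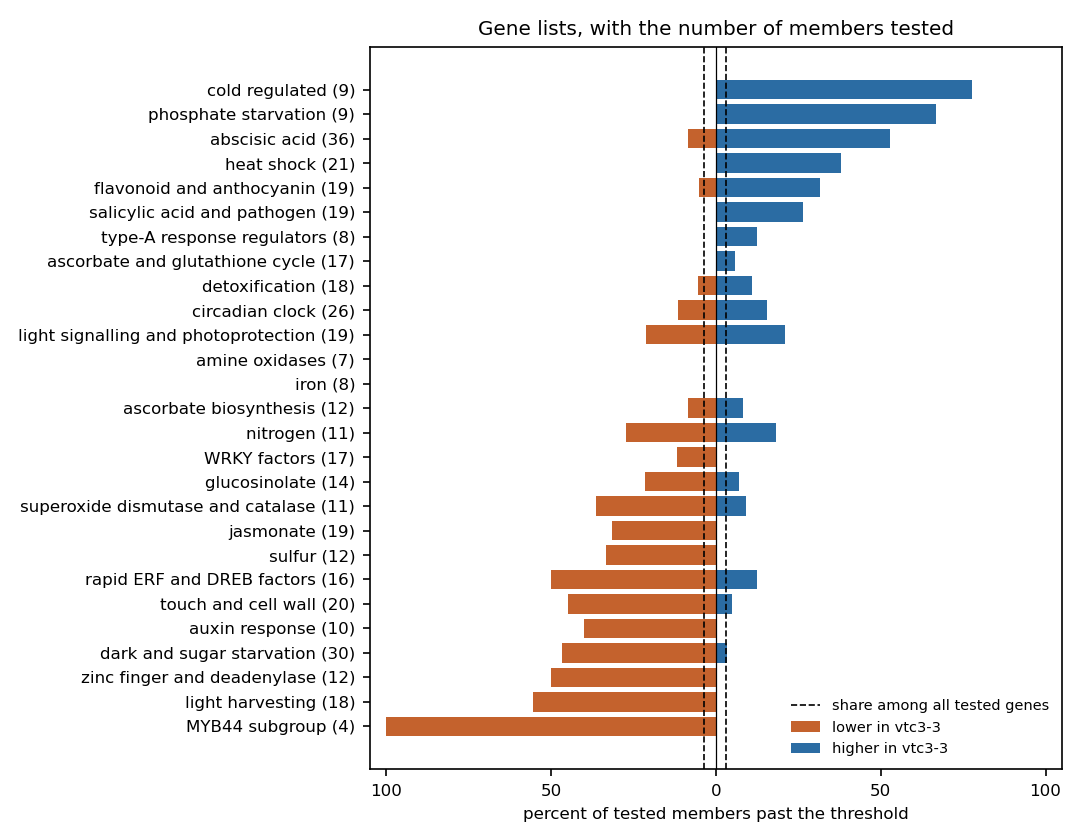
Percentage of the tested members of each gene list that were lower (orange, to the left) or higher (blue, to the right) in *vtc3-3* at an adjusted p under 0.05, with the number of tested members in parentheses. Dashed lines mark the shares among all tested genes, 3.58% lower and 3.15% higher. The lists were chosen with earlier results of these data known, so an excess over these lines is no independent evidence.

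The wild-type level, which had no part in the fit, was set beside the mutants for each gene. For genes lower in *vtc3-3*, the median of the wild-type libraries was nearer to *vtc3-3* in 518 of 621 (83.4%), and for genes higher in *vtc3-3* in 383 of 546 (70.1%), against 55.6% of all tested genes. For the 113 genes over 2-fold lower the share was 90.3%, and for the 67 over 2-fold higher it was 46.3%. With the mean of wild-type replicates 2 and 3 in place of the median, the shares of the 621 and the 546 were 86% and 72.3%. Wild-type *ERF104*, at 4.04, 3.94 and 2.73 CPM, lay below both mutants and close to *vtc3-3*. Wild-type *PAP1*, at 48.1, 25.8 and 42.9 CPM, was likewise on the side of *vtc3-3*.

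Other genes had the wild type on the side of *vtc2-4*. Wild-type *HAI1* had 7.34, 8.09 and 7.35 CPM, next to the 5.76 to 6.35 CPM of *vtc2-4*, and wild-type *HSP90.1* had 62.4, 41.2 and 41.7 CPM, with replicates 2 and 3 closest to *vtc2-4*. *MRD1* had 38.3, 30.4 and 31.4 CPM in the wild type, above the 25.1 to 29.3 CPM of *vtc2-4*. By contrast, *KMD1* had 3.49, 7.69 and 6.32 CPM in the wild type, below every *vtc3-3* library. These positions were not tested against the wild type here.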

How the data were processed

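Shoot RNA libraries (TruSeq RNA v2) were sequenced on an Illumina MiSeq, and the authors mapped and counted the reads per gene in CLC Genomics Workbench. The genome build and the use of strand are not given in the sources used here, so reads of a gene and of an antisense or overlapping gene cannot be told apart. The deposited table gives raw counts of reads per gene (exons plus introns), per exon and uniquely mapped, and RPKM values, which the authors computed per kilobase of exon and per 1000000 reads counted. Its other columns hold the exon length and the gene's start and end. The table also holds the authors' own comparisons (fold changes and p-values), which were not used, and 123 further columns of per-library values were not used.

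The total counts of the 3 *vtc2-4* and 3 *vtc3-3* libraries were fitted in edgeR 4.0.16 (R 4.3.3) with TMM scaling, filterByExpr, glmQLFit and glmQLFTest, with genotype as the only term. P-values were adjusted over all genes tested by the Benjamini-Hochberg method. SEs were the log2 fold change divided by the square root of F. The script was tested on simulated data. Of 28642 genes, 6331 had no read in the 6 libraries. CPM values are counts per 1000000 of all reads counted on genes in the library. Total counts were 6765579 to 7249548 in *vtc2-4* and 4399733 to 7567492 in *vtc3-3*, at which 3 reads are 0.396 to 0.682 CPM, and they set the precision of low genes. Replicates differed by 1.68 to 2.34 times the sampling variance within the mutants, so none was a copy of another library's reads. This ratio cannot tell separate cultures from separate libraries of the same plants.

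Members and gene lists were chosen with earlier results of these data known. Of 30 gene lists, members past the threshold were named, up to 4 per direction. Also named were the 15 genes with the largest rise and the 15 with the largest fall among those with groups that did not overlap and a mean of at least 10 reads, neighbours of *VTC2* and *VTC3* and the 5 called genes over 1.5-fold with the highest level in each direction. Some genes were added to complete a family. Not all are printed.

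Promoters were read from TAIR10.1 with the strand of its RefSeq annotation, to which 28009 of the table's gene IDs matched. The table's coordinates were tested on that sequence. 5787 gene spans began with ATG and ended with a stop codon, against at most 30 when shifted by 1 to 3 bases. Alternatives covered scaling, filters, the libraries fitted, a replicate block, the test (limma 3.58.1, DESeq2 1.42.0, exact test), the read class and each library left out. Of the comparison's libraries none was left out of the main result.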

Additional observations from a re-analysis of the deposited data

How the results depend on the processing

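Scaling, filters on low counts, exon or uniquely mapped reads, limma-voom, the exact test and the fit of 8 libraries (the mutants with wild-type replicates 2 and 3) kept all 4 counts within 1.5 times the values reported, with 1141 to 1388 genes called. That 8-library fit called 1191 genes, 635 lower and 556 higher, 190 over 2-fold. With wild-type replicate 1 added, the fit of all 9 libraries called 61 genes, 49 lower and 12 higher in *vtc3-3*, 56 of them over 2-fold. At an adjusted p under 0.01 there were 635, 362 lower and 273 higher. DESeq2 called 705, 401 lower and 304 higher. limma on log2(RPKM + 0.1) called 438, 242 lower and 196 higher, 112 over 2-fold, and with a pseudocount of 1 it called 402, 217 lower and 185 higher, 80 over 2-fold. With 1 library left out, 739 to 999 genes were called, 389 to 533 lower, 350 to 466 higher and 145 to 201 over 2-fold. The cause of the differences between tools and between single-library omissions was not tested. The log2 fold change of *VTC5*, which was not called, ranged from −0.0904 to 0.0956 in these omissions, and it was negative without *vtc2-4* replicate 2 (−0.0904) and without *vtc3-3* replicate 3 (−0.0026). Of 179 called genes that the naming rule covers, 132 were called in all 6 omissions of a single library and 38 in all 20 alternative settings.

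A fit with the replicate number as a block (the replicate block) called 1265 genes, 670 lower and 595 higher, 191 over 2-fold. The labels do not say that a number marks a shared culture or day, and deviations of same-numbered libraries correlated at 0.101, 0.033 and 0.018. *vtc3-3* replicate 2 correlated more with *vtc2-4* replicate 3 (0.041), so the numbers were not taken to pair the libraries. Genes near 3 reads per library (0.396 to 0.682 CPM) could not be compared at this depth, and with 3 libraries per mutant and 1 line per genotype the results describe these libraries.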
